A study of Mus musculus with 8 samples.

Results

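The p53 target genes described here are Cdkn1a, Mdm2, Ccng1, Zmat3, Perp, Phlda3, Trp53inp1, Plk2, Ddit4l and Polk, measured in mouse embryonic stem (ES) cells carrying a short hairpin RNA (shRNA) against Rif1 or a control shRNA. They are 10 genes with 20 probe sets annotated to a single symbol, of 45101 probe sets on the array. The genes were chosen with earlier results of these data known, among them that the direction of their change differed between the 2 cell settings, so counts over the 10 genes describe them and are not independent evidence of a p53 response. Of the 20 probe sets, 17 passed a filter on dim signals and were tested, with at least 1 for every gene. The other 3 were 1 probe set each of Mdm2, Plk2 and Polk, whose deposited signals lay between 21.4 and 49.7 on all 8 arrays.

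Rif1 is a chromatin protein with roles in telomere upkeep, in the repair of DNA breaks and in the timing of replication. The first setting compared J1 cells (strain 129S4/SvJae) 48 h after lipofection of Rif1 shRNA (2 arrays) with J1 cells given control shRNA (2 arrays). The second compared stable F1 Rif1 knockdown cells (C57BL/6xC3H) at passage 16 (2 arrays) with F1 cells carrying control shRNA (2 arrays). All cells were grown on feeder cells, the labels do not say whether the F1 line is 1 clone, and the F1 control arrays also carry the name of the knockdown line in their cell line label. Cell line, strain, delivery and duration all differ between the settings and cannot be told apart. Nothing in the labels says that both arrays of a group came from separate cultures, so p-values measure the spread between arrays, which may be technical.

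p53 is a transcription factor that is stabilised by DNA damage and other stress and binds a response element made of 2 copies of a consensus decamer. Its targets arrest the cell cycle, feed back on p53 itself, promote cell death, restrain growth signalling and take part in DNA synthesis past lesions. In ES cells p53 is abundant, and its targets are part of how these cells respond to replication stress and differentiate.

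The start regions of the members are shown because p53 acts on its targets through elements in their DNA. Whether p53 acted through such elements in these cells was not tested. RefSeq start windows (GRCm38.p6, 250 bases before to 50 bases after a start) matched 7 of the 10 genes in 9 windows: those of Cdkn1a and Polk (2 each), Mdm2, Ccng1, Phlda3, Plk2 and Ddit4l. They were searched for the p53 consensus decamer, which reads alike on both strands. A full site was taken as 2 adjacent decamers with at most 1 deviation over their 20 bases and the C and G of each core intact, a rule set after the windows had been seen. Capitals mark the full site in Cdkn1a and Ccng1 and the exact decamer in the others.
Cdkn1a, chr17:29090729-29091028 (+ strand): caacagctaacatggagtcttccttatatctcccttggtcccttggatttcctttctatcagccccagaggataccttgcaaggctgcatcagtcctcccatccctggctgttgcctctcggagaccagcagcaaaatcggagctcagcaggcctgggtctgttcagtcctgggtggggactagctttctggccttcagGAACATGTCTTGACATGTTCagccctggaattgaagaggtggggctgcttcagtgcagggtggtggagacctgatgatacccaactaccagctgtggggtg
Ccng1, chr11:40755237-40755536 (- strand): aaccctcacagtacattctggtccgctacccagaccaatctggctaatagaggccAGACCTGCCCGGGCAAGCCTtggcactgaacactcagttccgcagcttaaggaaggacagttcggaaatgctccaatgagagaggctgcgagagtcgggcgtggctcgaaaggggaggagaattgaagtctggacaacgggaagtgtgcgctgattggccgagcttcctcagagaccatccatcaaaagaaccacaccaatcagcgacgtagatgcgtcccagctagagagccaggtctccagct
Mdm2, chr10:117710910-117710969 (- strand): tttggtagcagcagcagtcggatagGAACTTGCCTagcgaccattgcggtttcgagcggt
Ddit4l, chr3:137623557-137623616 (+ strand): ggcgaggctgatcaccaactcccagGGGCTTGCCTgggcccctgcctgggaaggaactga
Polk, chr13:96519384-96519437 (- strand): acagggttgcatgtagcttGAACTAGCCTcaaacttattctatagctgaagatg

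A full site was present in 22 of 32851 windows (0.067%), and the upstream Cdkn1a window and the Ccng1 window were among them. The Cdkn1a site began 51 bases before the start of that window's transcript and 2841 bases before the other annotated start. The Ccng1 site began 195 bases before the start. At least 1 exact decamer was present in 2745 of all windows (8.36%) and in 5 of the 9 windows of the members. A match describes the letters of a window and is no measure of binding.

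Of the 22 genes with a full site, 7 were tested on the array. Among these, Ccng1 and Cdkn1a are members, chosen with the direction of their change known, so their values are not independent evidence. Ccng1, Cdkn1a and Gtse1, a further p53 target, had a higher effect in F1 than in J1 cells (difference 1.18, 1.06 and 0.43, adjusted p = 5.11e-05, 0.000469 and 0.0372). The p53 target Rps27l had a difference of 0.14 (adjusted p = 0.374), and Calhm2, Mthfd1 and Sptbn4 had -0.05, -0.11 and -0.42 (adjusted p = 0.896, 0.442 and 0.110), each at its brightest probe set. In F1 alone as many of the 7 rose as fell, 2 each, with Ccng1 and Cdkn1a higher and Sptbn4 (-0.58, adjusted p = 0.00285) and Mthfd1 (-0.22, adjusted p = 0.0206) lower. The genes that rose are the members, so their count follows from the choice. No tested gene with a full site outside the members rose in F1, and the genes that fell are not members. In J1, 0 rose and 1 fell, which was Ccng1. Beside these counts, 10.6% of all 14714 genes rose and 8.2% fell in F1, and 1.86% rose and 2.17% fell in J1. For the difference, 6.25% of all genes passed upward and 4.37% downward.

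Signals below are the deposited linear values of single arrays. Fold changes and tests come from log2(signal + 18) after quantile normalization, fitted over all 8 arrays with limma, with Benjamini-Hochberg adjustment over 31605 probe sets and a threshold of 0.05. Adding 18 makes changes at low signals look smaller, and precision is limited by the 2 arrays per group.

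A few facts of the arrays stand beside all results. Rif1 itself was lower at all 4 of its probe sets, with 39.3% to 47.2% of the control level left in J1 and 24.7% to 33.7% in F1. Actin's 3'-to-5' ratio of signals, which reflects RNA quality, was 2.18 and 2.17 in J1 Rif1 shRNA arrays against 2.71 and 2.61 in J1 controls, and 1.33 and 1.33 in F1 Rif1 shRNA arrays against 1.35 and 1.41 in F1 controls. Eif2s3y, a gene on the Y chromosome, had signals of 911 and 960 in F1 Rif1 shRNA arrays and of 19.9 and 21.4 in F1 control arrays. Uty, also on the Y chromosome, had 144 and 142 against 7.54 and 4.69 at its brightest probe set, so the F1 groups also differ in Y-linked RNA. Within F1, Rif1 shRNA and this difference between the groups cannot be told apart. On the J1 arrays the signals of Eif2s3y were 780 and 830 with Rif1 shRNA and 901 and 899.6 in controls. The ES cell markers Pou5f1 and Nanog were high on all arrays, at 4505 or more for Pou5f1 and 2163 or more for Nanog.

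**Figure D1:**
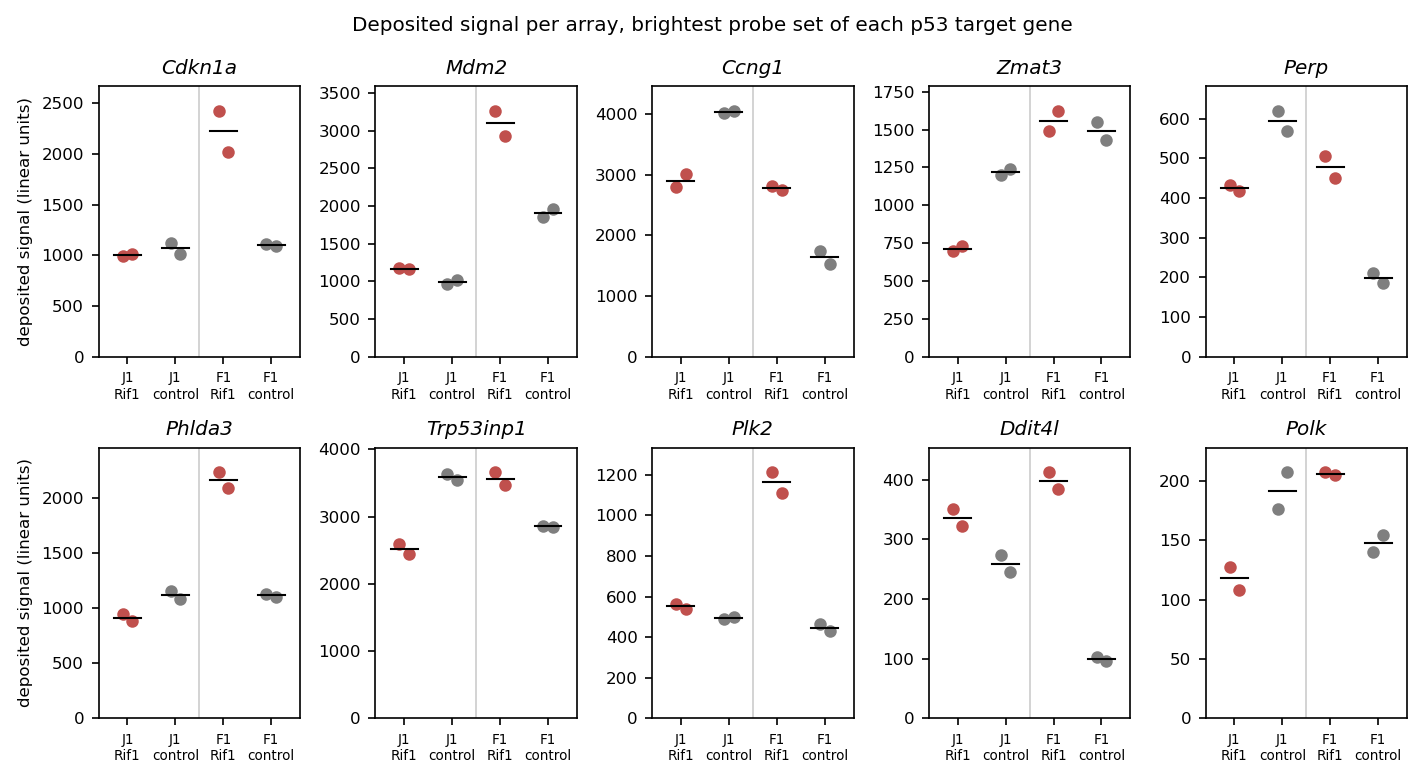
Deposited signal (linear units, vertical axis from 0) of each array at the brightest tested probe set of the 10 p53 target genes, with red points for Rif1 shRNA, grey points for control and a line at the mean of 2 arrays. In F1 cells the knockdown arrays lie above the control arrays for 9 genes, with Zmat3 overlapping; in J1 cells they lie below the control arrays for Zmat3, Trp53inp1, Perp, Ccng1, Phlda3, Polk and, by a small margin, Cdkn1a, and above them for Mdm2, Plk2 and Ddit4l.

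The genes of cell cycle arrest were higher in F1 knockdown cells and did not pass the test in J1. Cdkn1a encodes p21, the inhibitor of cyclin-dependent kinases through which p53 stops the cell cycle. At its brighter probe set Cdkn1a had signals of 2427 and 2022 in F1 Rif1 shRNA arrays, against 1108 and 1090.2 in F1 controls. The groups did not overlap, and the level was 1.98-fold that of controls (log2 fold change 0.99, SE 0.09, adjusted p = 2.41e-05). In J1 the signals were 991 and 1011 in Rif1 shRNA arrays and 1119 and 1017 in controls, a change of -0.07 on the log2 scale (SE 0.09, adjusted p = 0.725), and the groups overlapped after normalization. The second Cdkn1a probe set gave nearly the same effects, 0.94 in F1 (adjusted p = 1.75e-05) and -0.06 in J1 (adjusted p = 0.743).

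Plk2, a polo-like kinase that acts in centriole duplication and the S-phase stress response, had signals of 1213 and 1112 in F1 Rif1 shRNA arrays against 463 and 431 in F1 controls. It rose 2.37-fold (log2 fold change 1.24, SE 0.08, adjusted p = 1.75e-06). In J1 its arrays held 565 and 538 with Rif1 shRNA and 488 and 497 in controls (0.19, adjusted p = 0.233).

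Mdm2 and Ccng1 act back on p53, and both rose in F1. Mdm2 encodes the ubiquitin ligase that degrades p53 and is itself a p53 target. Its brighter probe set held 3267 and 2936 in F1 Rif1 shRNA arrays against 1855 and 1958 in F1 controls, a 1.64-fold rise (log2 fold change 0.72, SE 0.07, adjusted p = 3.99e-05). In J1 it held 1174 and 1160.3 with Rif1 shRNA and 972 and 1024 in controls, so the arrays did not overlap but the change did not pass (0.23, adjusted p = 0.0982). The second Mdm2 probe set had 0.73 in F1 (adjusted p = 0.00142) and 0.20 in J1 (adjusted p = 0.431).

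Ccng1 encodes cyclin G1, which works with a protein phosphatase to act on Mdm2. At its brightest probe set Ccng1 had 2794 and 3010.2 in J1 Rif1 shRNA arrays against 4011 and 4056 in J1 controls, so it fell to 74.7% of the control level (log2 fold change -0.42, SE 0.07, adjusted p = 0.00821). In F1 it had 2822 and 2747 with Rif1 shRNA against 1741 and 1532 in controls, a 1.70-fold rise (log2 fold change 0.76, adjusted p = 2.27e-05). The 3 Ccng1 probe sets, which the annotation ties to 1 sequence record, gave values of unequal size. In J1 the others had -0.25 (the second brightest, adjusted p = 0.0385) and -0.08 (the dimmest, adjusted p = 0.690), and in F1 the same probe sets had 0.13 (adjusted p = 0.151) and 0.74 (adjusted p = 0.000250). The J1 call of the second brightest was lost in 15 of 22 alternatives, with an adjusted p of up to 0.191.

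Perp and Trp53inp1, genes with roles in cell death, fell in J1 and rose in F1 knockdown cells. Perp, a membrane protein of desmosomes that also takes part in p53-dependent apoptosis, had 432 and 417 in J1 Rif1 shRNA arrays against 620.1 and 568 in J1 controls. It fell to 72.7% of the control level (log2 fold change -0.46, SE 0.09, adjusted p = 0.0279). This J1 call was lost in 9 of 22 alternatives, over which the log2 fold change ran from -0.54 to -0.38. In F1 its signals were 506 and 450.5 with Rif1 shRNA and 212 and 185 in controls, a 2.00-fold rise (log2 fold change 1.001, adjusted p = 4.13e-05).

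Trp53inp1 encodes a stress-induced protein that acts with p53 in cell death and autophagy. Its brighter probe set had 2598 and 2441 in J1 Rif1 shRNA arrays against 3634 and 3540.0 in J1 controls, so it fell to 71.9% of the control level (log2 fold change -0.48, SE 0.05, adjusted p = 0.000891). In F1 it had 3663 and 3473 with Rif1 shRNA against 2867 and 2849 in controls, a rise of 0.34 on the log2 scale (adjusted p = 0.000846). The dimmer Trp53inp1 probe set, at 48.6 to 102 on the 8 arrays, had -0.49 in J1 and 0.21 in F1 (adjusted p = 0.102 and 0.406).

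Phlda3 encodes a protein that holds back the kinase Akt. It had 2231 and 2088 in F1 Rif1 shRNA arrays against 1129 and 1102 in F1 controls and rose 1.90-fold (log2 fold change 0.92, SE 0.07, adjusted p = 7.27e-06). In J1 it had 943 and 878 with Rif1 shRNA against 1156 and 1079.9 in controls, without overlap, and its change of -0.27 did not pass (adjusted p = 0.0601).

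Ddit4l, which encodes an inhibitor of the growth kinase mTORC1, showed the largest F1 change among the members. At its brightest probe set it had 413 and 385 in F1 Rif1 shRNA arrays against 103 and 96.8 in F1 controls, a 2.84-fold rise (log2 fold change 1.51, SE 0.10, adjusted p = 2.65e-06). The other Ddit4l probe sets rose by 0.96 and 1.33 on the log2 scale (adjusted p = 0.000517 and 4.81e-06). In J1 the 3 probe sets had 0.38, -0.26 and 0.19 (adjusted p = 0.0608, 0.336 and 0.344), so they did not point the same way.

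Zmat3 and Polk fell in J1. Zmat3 encodes a zinc finger protein that binds RNA. It had 699.8 and 728 in J1 Rif1 shRNA arrays against 1201 and 1241 in J1 controls, and fell to 60.1% of the control level (log2 fold change -0.73, SE 0.07, adjusted p = 0.000344). In F1 its arrays overlapped, at 1493 and 1625 with Rif1 shRNA and 1551 and 1433 in controls (0.03, SE 0.07, adjusted p = 0.841).

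Polk encodes DNA polymerase kappa, which copies past damaged bases. Its tested probe set had 128 and 108 in J1 Rif1 shRNA arrays against 176 and 207 in J1 controls, a fall to 57.6% of the control level (log2 fold change -0.79, SE 0.14, adjusted p = 0.0120). The J1 call of Polk was lost in 5 of 22 alternatives, over which the log2 fold change ran from -1.01 to -0.62. In F1 Polk had 207 and 205 with Rif1 shRNA against 140 and 154 in controls, without overlap. Its F1 change of 0.32 did not pass (adjusted p = 0.159), although it passed in 6 of 22 alternatives (lowest adjusted p = 0.0127).

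**Figure D2:**
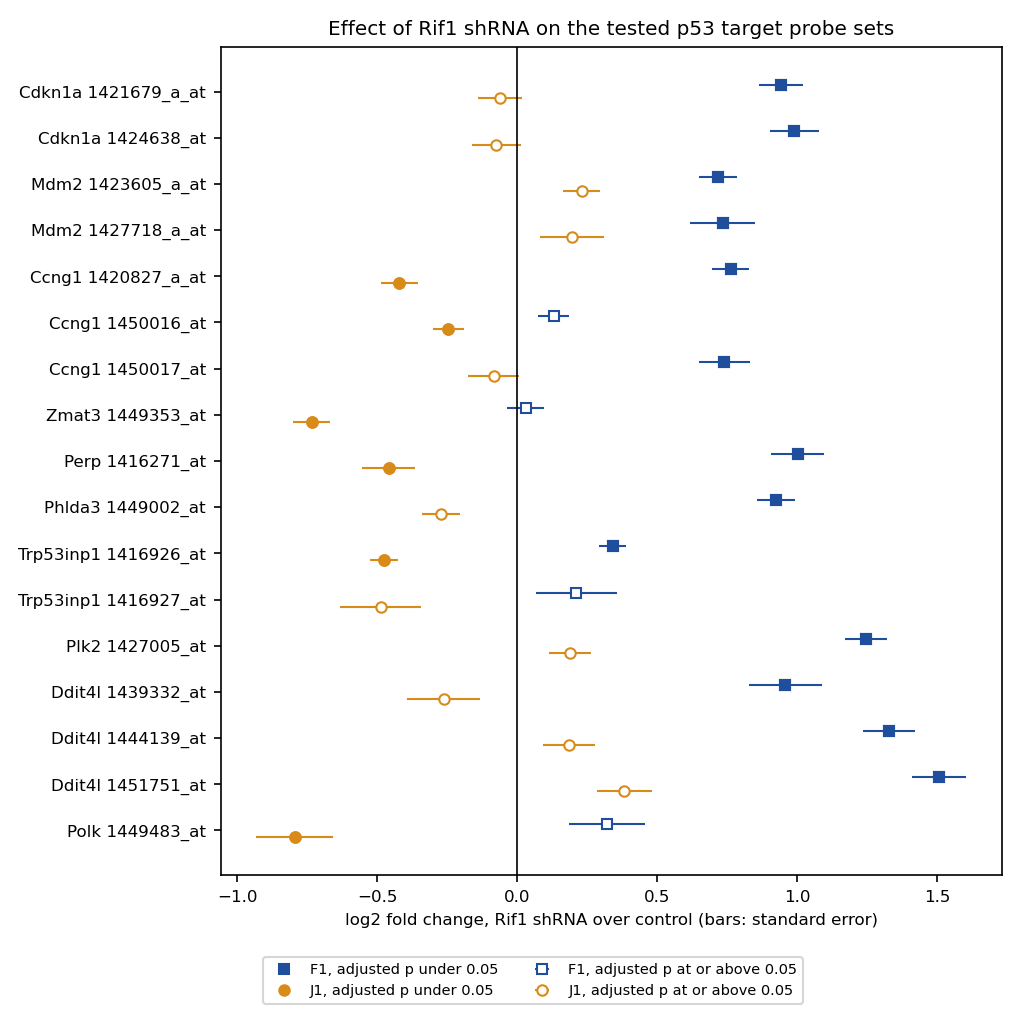
Log2 fold change of Rif1 shRNA over control (horizontal axis, with standard error bars) at each of the 17 tested probe sets, in F1 (blue squares) and J1 (orange circles), filled where the adjusted p was under 0.05. All F1 values lie at or right of 0.03, and the 6 filled J1 values lie between -0.79 and -0.25.

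Counted over probe sets, 13 of the 17 tested rose and 0 fell in F1, for 8 of the 10 genes, where 8.28% of all tested probe sets rose and 6.81% fell (15.1% together). The 4 that did not pass were those of Zmat3, Polk, 1 of Ccng1 and 1 of Trp53inp1. With limma's unadjusted p under 0.05 the counts were 15 and 0. The median F1 log2 fold change of the 17 was 0.76, beside -0.03 over all tested probe sets. The F1 arrays did not overlap, knockdown above control, at 16 of the 17 (28.4% of all tested probe sets). Leaving out any 1 of the 8 arrays gave 13 risen and 0 fallen in each case.

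In J1, 6 of the 17 fell and 0 rose, for 5 genes (Zmat3, Polk, Trp53inp1, Perp and Ccng1), where 1.74% of all tested probe sets fell and 1.44% rose (3.18% together). The median was -0.25, beside -0.001 over all tested probe sets, and 5 of the 17 had a positive value. With limma's unadjusted p under 0.05, 8 were lower and 3 higher, the higher ones being 1 probe set each of Mdm2, Plk2 and Ddit4l. The arrays did not overlap, knockdown below control, at 8 of the 17 (21% of all tested probe sets) and knockdown above control at 4 (18.8%). The count depends on the arrays and on the fit. It was 3 when the F1 arrays were left out of the fit, 3 without the intensity trend and 4 with the replicate number as a block. It was also smaller without either J1 control array. Zmat3 and the brighter Trp53inp1 probe set passed in each of these fits. Ccng1 at its brightest probe set had an adjusted p of 0.0585 and 0.0771 without control replicate 1 and 2, Perp 0.136 and 0.0768, and Polk 0.109 without control replicate 2.

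The difference between the settings was tested as the F1 effect minus the J1 effect. It was positive at all 17 tested probe sets and passed at 15, with at least 1 for each of the 10 genes, where 4.99% of all tested probe sets passed upward and 3.37% downward (8.37% together; 1578 and 1066, or 1953 and 788 with median centring in place of quantile normalization). By limma's unadjusted p under 0.05 it was 17 upward and 0 downward. The difference was largest for Perp (1.46, SE 0.13, adjusted p = 0.000105) and smallest among those that passed for 1 probe set of Ccng1 (0.38, adjusted p = 0.0126). It did not pass for the second probe set of Mdm2 (0.54, adjusted p = 0.0704) or the dim one of Trp53inp1 (0.70, adjusted p = 0.0618). A fall in J1 together with a rise in F1, each past the threshold, was found at 3 probe sets, of Ccng1, Perp and Trp53inp1, and at 90 of all 31605 (0.285%). Arrays that did not overlap, lower in J1 and higher in F1, were found at 7 of the 17 and at 5.69% of all tested probe sets. Since the members were chosen for differing between the settings, these counts describe the choice.

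**Figure D3:**
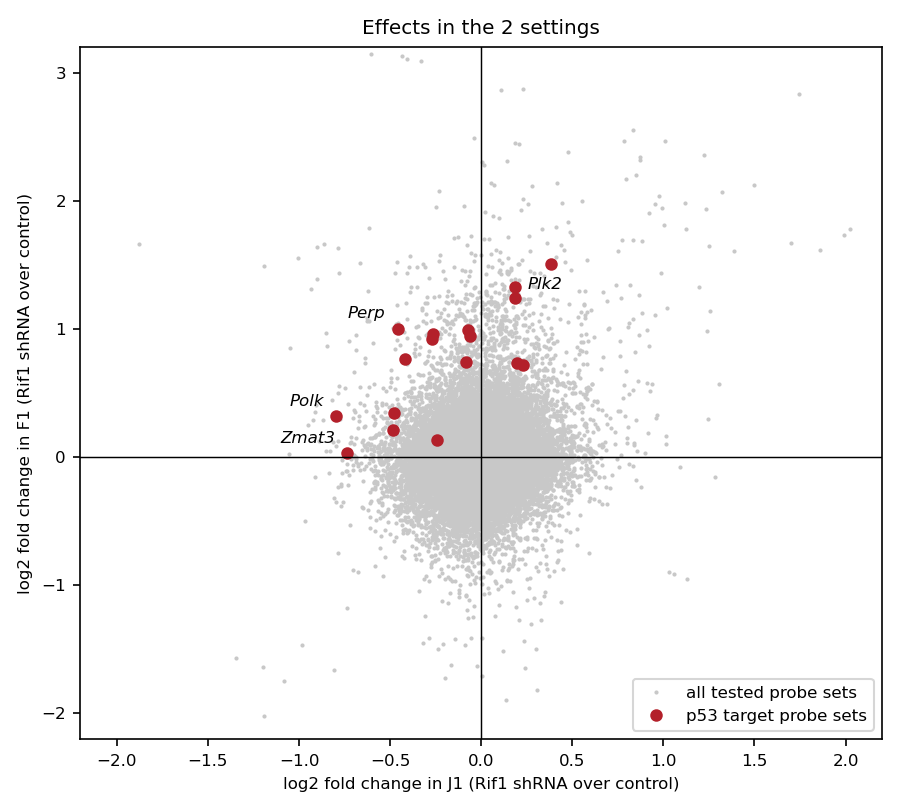
Log2 fold change in J1 (horizontal) against that in F1 (vertical), Rif1 shRNA over control, for all 31605 tested probe sets (grey; 12 lie outside the axes) and the 17 p53 target probe sets (red). The red points lie above 0 on the F1 axis and between -0.79 and 0.38 on the J1 axis.

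Levels in J1 and F1 could be ordered only with a scaling. On the normalized scale F1 controls were the lowest of the 4 groups at 14 of the 17 probe sets, and on the deposited scale at 8. The Zmat3 level was lowest in J1 Rif1 shRNA cells on both scales.

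By likeness of pattern over the 8 arrays on the normalized scale, the genes closest to Cdkn1a were Txndc9, Tmem9b, Phlda1, Speer4cos and Plin2 (Pearson r from 0.97 to 0.98, of 14713 other genes). Phlda1, a relative of Phlda3, had a log2 fold change of 1.24 in F1 and -0.09 in J1. The genes closest to Zmat3 were Rnpepl1, Sfmbt1, Shroom3, Syngr3 and 2510039O18Rik (r from 0.93 to 0.97). These 8 arrays fall into 4 groups and share cell line and scaling, so the correlations describe group patterns only.

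Other p53 targets, taken from a list of 40 further genes of which 36 were tested, included genes that rose and genes that fell in F1. There, 7 rose and 5 fell (13 and 6 by limma's unadjusted p under 0.05), where 10.6% of all 14714 genes rose and 8.2% fell at their brightest probe set, and the median was 0.11 beside -0.02. Pmaip1, which encodes the apoptosis protein Noxa, had 2863 and 2841 in F1 Rif1 shRNA arrays against 1742 and 1617 in F1 controls (0.76, adjusted p = 0.000170). Sfn, which encodes stratifin, an inhibitor of mitotic entry, had 479 and 399 against 201 and 205 (0.86, adjusted p = 0.000375). Gadd45a, a damage-response gene, fell to 987 and 994 in F1 Rif1 shRNA arrays, against 1386 and 1365 in F1 controls (-0.51, adjusted p = 0.000608), and Psrc1, a spindle gene, also fell (-0.44, adjusted p = 0.00226).

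In J1 only Pmaip1 passed among these 36, and it rose (0.51, adjusted p = 0.0117), with 324 and 286 in Rif1 shRNA arrays against 202 and 229 in controls. By limma's unadjusted p under 0.05, 11 of the 36 were lower and 1 was higher in J1, and their median was -0.13, beside 0.006 over all genes. Upward and downward shares of all genes in J1 were 1.86% and 2.17%. The F1 effect exceeded the J1 effect for 6 of the 36, among them Sfn (0.95), Eda2r (0.78), a member of the TNF receptor family, and the repair nuclease Ercc5 (0.64), and was below it for Gadd45a (-0.61), with adjusted p from 0.00365 to 0.0121. By unadjusted p the difference was upward for 14 and downward for 2, with a median of 0.16 beside -0.02 over all genes. Of all genes, 6.25% passed upward and 4.37% downward.

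Among 24 tested genes that act on p53, 1 rose and 3 fell in F1. The shares over all genes were 10.6% risen and 8.2% fallen in F1, and 1.86% risen and 2.17% fallen in J1. Cdkn2a, whose locus encodes the Mdm2 inhibitor p19Arf and the kinase inhibitor p16Ink4a, had 953 and 873 in F1 Rif1 shRNA arrays against 416 and 448 in F1 controls (0.94, adjusted p = 0.000189), and its effect was higher in F1 than in J1 (difference 0.77, adjusted p = 0.0112). The checkpoint kinase gene Chek1 fell (-0.46, adjusted p = 0.000569), as did Trp53bp1 (-0.38, adjusted p = 0.00265) and the deubiquitinase gene Usp7 (-0.23, adjusted p = 0.0226). In J1, 0 rose and 5 fell (1 and 7 by limma's unadjusted p under 0.05): the acetyltransferase gene Ep300 (-0.40, adjusted p = 0.0123), Trp53bp1 (-0.37, adjusted p = 0.0142), the methyltransferase gene Kmt5a, Brd7 and Zfp385a (adjusted p from 0.0210 to 0.0449). Mdm4, the partner of Mdm2, had -0.12 in F1 and 0.12 in J1 (adjusted p = 0.455 and 0.549). Trp53 itself was not analysed here.

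Of 19 tested cell cycle genes that are repressed through p21 and the DREAM complex, 8 fell and 0 rose in F1 (14 and 0 by limma's unadjusted p under 0.05, median -0.23), led by Mybl2, a transcription factor of the G2/M programme, with 1778 and 1799 in Rif1 shRNA arrays against 2963 and 3074 in controls (-0.81, adjusted p = 9.97e-06). Ccnb2 (-0.51), Bub1b (-0.50) and Mki67 (-0.57) also fell (adjusted p from 0.000133 to 0.000428). In J1, 3 fell and 0 rose (7 and 0 by unadjusted p), Mki67, Cenpf and Aurkb (-0.41, -0.41 and -0.37, adjusted p from 0.0145 to 0.0387). The F1 effect was below the J1 effect for 3 of the 19, Mybl2, Ccnb2 and Bub1b, by 0.71, 0.38 and 0.33 on the log2 scale (adjusted p from 0.000699 to 0.0489). Among all genes, 8.2% fell and 10.6% rose in F1, and 2.17% fell and 1.86% rose in J1. The difference passed downward for 4.37% of all genes.

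**Figure D4:**
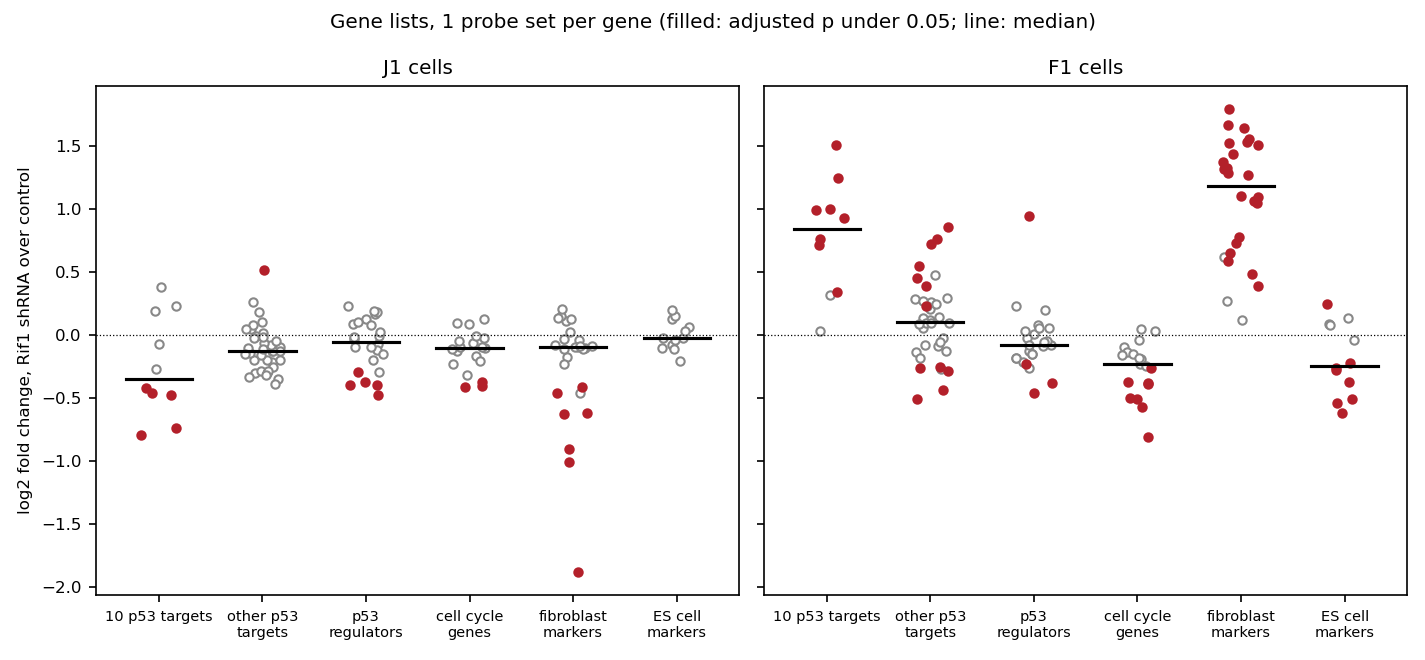
Log2 fold change of Rif1 shRNA over control (vertical axis) in J1 (left) and F1 (right) for the genes of 6 lists, 1 probe set per gene, filled where the adjusted p was under 0.05, with a line at the median. In F1 the 10 p53 targets have a median of 0.84, the 36 other p53 targets 0.11 and the 26 fibroblast markers 1.18.

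Most markers of feeder fibroblasts rose with the members in F1, while most did not pass in J1. For comparison, 10.6% of all genes rose and 8.2% fell in F1, and 1.86% rose and 2.17% fell in J1. Of 26 tested markers of these cells, 23 rose and 0 fell in F1 (25 and 0 by limma's unadjusted p under 0.05, median 1.18), and their summed deposited signal was 49639 and 48268 in Rif1 shRNA arrays against 24666 and 24479 in controls. In J1, 7 fell and 0 rose (9 and 0 by unadjusted p, median -0.10), with sums of 16775 and 16544 in Rif1 shRNA arrays against 19585 and 18483 in controls. Acta2, the smooth muscle actin gene of activated fibroblasts, had 1.66 in F1 and -1.88 in J1, the lowest J1 value of the 26. The J1 values reached up to 0.21 (Fbln2, at 50.4 and 58.5 with Rif1 shRNA and 40.5 and 47.2 in controls), and 19 of the 26 did not pass there. Several of these, among them Postn, Col3a1, S100a4, Dcn and Thbs1, had J1 signals under the J1 array medians of 61.1 to 69.4. A fall could hardly show at such signals. Others that did not pass in J1, such as Vim and Lgals1, were bright. The lowest fibroblast marker signals were 66.1 in F1 Rif1 shRNA arrays, 46.5 in F1 controls, 28.8 in J1 Rif1 shRNA arrays and 27.2 in J1 controls. The lowest deposited signal of any probe set was 1, so a signal above 0 does not show that a marker was expressed. The part of these cells, of the actin 3'-to-5' ratio in J1 and of the Y-linked difference in F1 in the p53 target changes was not tested. In such bulk samples, fewer cells of a type and less RNA per cell cannot be told apart.

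Of 12 ES cell markers, 7 fell and 1 rose in F1, with values from -0.62 to 0.25 and Esrrb at -0.54 (adjusted p = 0.000104). In J1, 0 of them passed (2 lower and 1 higher by limma's unadjusted p under 0.05). Their summed signal was 61415 and 60113 in F1 Rif1 shRNA arrays against 62342 and 63747 in F1 controls, and 48931 and 50461 in J1 Rif1 shRNA arrays against 49639 and 49239 in J1 controls. Of 12 primitive endoderm markers, 5 rose and 1 fell in F1 and 3 fell in J1. Of 8 tested trophoblast markers, 4 rose and 2 fell in F1, with values from -0.85 to 3.14 and Krt8 at 3.09. In J1, 1 of these rose and 2 fell, with values from -0.61 to 0.28. Beside these lists, 10.6% of all genes rose and 8.2% fell in F1, and 1.86% rose and 2.17% fell in J1.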

How the data were processed

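Per the labels, total RNA was extracted with Trizol, biotin-labelled and hybridised to Affymetrix mouse arrays. The authors deposited intensity signals, 1 per probe set and array, made with MAS5 per the submitters' processing notes; no version of it was found in these notes. For 8 arrays it gave 45101 values each, with a 2% trimmed mean of 193 to 197 on J1 and 301 to 309 on F1 arrays.

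The values were taken as log2(signal + 18), 18 being the 10th percentile of all values, and quantile normalized across the arrays. After leaving out 64 control probe sets, 31605 were kept, each exceeding the array-wide 40th percentile on 2 or more arrays. Group means were fitted with limma 3.58.1 in R 4.3.3 (eBayes with intensity trend, 4 residual degrees of freedom). Tests were two-sided. The fit was also run on simulated data with planted changes and the same spread for every probe set of a setting. The spread of the real arrays varies between probe sets, so the simulation does not measure the error rate here. Python 3.11.15 with matplotlib 3.10.9 made the figures.

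Gene names came from the platform annotation, with 34945 probe sets of 1 symbol, 932 of several and 9160 of none here. List genes were taken at their brightest tested probe set. Of each list, the genes with the smallest p per contrast, at most 4, were eligible to be named, besides every member and Rif1 probe set and a few fixed markers. Not all of them are described. Eif2s3y, Uty, Zfp385a, Phlda1 and the genes with a full p53 site were named after their values were seen. The members and lists were chosen with earlier results of these data known. Alternatives were other offsets, filters, scalings, spreads, blocks and thresholds, and each array left out.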

Additional observations from a re-analysis of the deposited data

Results flagged for a closer look

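The test of the difference between settings, F1 effect minus J1 effect, passed for 15 probe sets of the 10 genes, all with a higher effect in F1 cells. The log2 differences were 1.46 for Perp, 1.22, 1.14 and 1.12 for the 3 Ddit4l probe sets, 1.20 for Phlda3, 1.12 for Polk, 1.06 for Plk2 and 0.76 for Zmat3. They were 1.005 and 1.06 for the 2 Cdkn1a probe sets, 1.18, 0.38 and 0.82 for the 3 Ccng1 probe sets, 0.82 for the brighter Trp53inp1 probe set and 0.49 for the brighter Mdm2 probe set. By limma's adjusted p these ranged between 5.11e-05 for Ccng1 and 0.0126 for Ccng1. Cell line, strain, delivery and duration differ together between J1 and F1, and no comparison here tells them apart. Groups of 2 arrays allow no check for a single array that stands apart.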

How the results depend on the processing

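With 2 arrays per group, 4 residual degrees of freedom and a larger spread in J1 (median residual SD 0.115 on the log2 scale) than in F1 (0.0658), the J1 calls are the least firm. Of the member counts, those of F1 (13 to 14 higher, 0 lower) and of the difference (13 to 17 higher, 0 lower) stayed within 1.5 times the main count in every alternative. The J1 count of lower probe sets, 6 as reported, was 3 with only the 4 arrays of the setting, 3 without the intensity trend and 3 at an adjusted p under 0.01. It was also 3 with quantile normalization within each setting and only its 4 arrays, an alternative chosen after seeing the data. Leaving out each array gave 2 to 7, with 3 without J1 control replicate 1 and 2 without replicate 2. The replicate number as a block gave 4 lower in J1, 13 higher in F1 and 16 in the difference. The labels do not say that a number marks a shared culture, and deviations of same-numbered arrays correlated at -0.339 in J1 and 0.194 in F1, so the numbers are not taken as pairs. A crossed block, also chosen after seeing the data, gave 5, 14 and 15. With gene means in place of probe sets, 5 genes fell in J1, where Ccng1 no longer passed (adjusted p = 0.0512) and Phlda3 did (0.0427).

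At other probe sets, the Mdm2 difference of 0.49 was lost without the intensity trend (adjusted p = 0.0604) and without F1 Rif1 shRNA replicate 1 (0.0687). The second brightest Ccng1 probe set lost its difference of 0.38 in 5 of 20 alternatives, with adjusted p of 0.0880 without the trend, 0.0621 without F1 control replicate 2, and 0.0773 and 0.0643 without F1 Rif1 shRNA replicate 1 and 2, besides the threshold of 0.01. It also lost its J1 call in 15 of 22. Polk in F1 passed in 6 of 22: on the values as deposited (0.0164), with quantile normalization within each setting (0.0430), with median centring (0.0378), with only 4 arrays (0.0138), with the crossed block (0.0404) and with both setting changes (0.0127). Over all tested probe sets the calls moved by more than the members did. In J1 they numbered 1004, against 280 with only 4 arrays, 350 without the trend, 468 with the block, 489 with median centring and 229 to 1763 leaving out an array. In F1 they numbered 4768, against 8127 with only 4 arrays and 1856 to 6211 leaving out an array, and for the difference 2644, against 1014 to 3995. At an adjusted p under 0.01 the 3 counts were 271, 2592 and 1144. No result reversed past a threshold.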
